A study of Mus musculus with 114 samples.

Results

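The basement membrane genes Col4a1, Col4a2, Lama2, Lama4, Lamb1, Lamb2, Lamc1, Nid1, Nid2 and Hspg2 were followed in adipocytes of perigonadal white adipose tissue from mice on chow (CD) or on a high fat diet (HFD). They were chosen by gene symbol, as chains of collagen IV and of the laminins together with the nidogens and perlecan, and all 10 were found among the 29132 genes listed. All 10 passed the filter on low values, a mean of log2(CPM + 1) above 2 over all mice, which left 10343 genes to test. CPM are the reads of a gene per 1000000 reads on the listed genes of that mouse.

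All mice were male C57BL/6J and started on their diet at 6 weeks of age. The groups were CD and HFD at 8, 20 and 34 weeks on the diet, with 6 mice in each group except the 34 week CD group, which had 8, and 38 mice in all. Each mouse gave 1 set of values, in which its 3 technical replicates had been merged. The adipocytes were the fraction that floated after collagenase digestion of the fat pad of a fasted mouse, a separation by buoyancy that does not sort for a cell type. The study's methods name a pair of control chows for CD mice, and which mouse received which is not given in the sources used here.

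Basement membranes are thin sheets of extracellular matrix on which cells rest, and in fat tissue each adipocyte is wrapped in one. Laminins, trimers of an α, a β and a γ chain, form a network at the cell surface, collagen IV, a trimer most often built from the products of Col4a1 and Col4a2, forms a covalently linked network beside it, and nidogens and the heparan sulfate proteoglycan perlecan (Hspg2) connect them. Endothelial cells, mural cells and fibroblasts of fat tissue also make these proteins, so the same genes are read from more than 1 cell type in bulk RNA.

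The labelled cell type was checked first. All 12 adipocyte markers on the list passed the filter, and their summed level lay between 19177 and 72570 CPM per mouse. At 20 weeks this sum was lower in every HFD mouse (28537 to 41365 CPM) than in every CD mouse (47107 to 72570 CPM). The diets overlapped at 8 and 34 weeks. Libraries held between 9275711 and 15480388 reads on genes, and at 8 weeks every HFD library (13201234 to 15480388 reads) was deeper than every CD library (10562845 to 12611013). Depth also separated several of the times. Every HFD library of 34 weeks (10714545 to 12271651) was shallower than every one of 8 and of 20 weeks (13159018 to 14961360). Every CD library of 20 weeks (13091365 to 14292115) was deeper than every one of 8 and of 34 weeks (9275711 to 12433584). The lowest member value, 1.75 CPM of Lama2, rested on 21 reads, and the other 9 members had at least 267 reads in every mouse. None of the T cell, B cell or epididymal markers passed the filter. Markers of other cells did: all 14 macrophage markers measured, all 16 endothelial, 13 of 15 fibroblast and 9 of 12 mural markers. So did 3 of 10 mesothelial markers and 1 of 10 Schwann cell markers.

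Col4a1 and Col4a2 are a classic example of a pair of genes that share a promoter and are read in opposite directions, and their sequences are shown because, of all pairs of members, their deviations from the group means were the most closely correlated. On GRCm38, the build of the reads (mm10), RefSeq places Col4a1 on the minus strand at chr8:11198423-11312889 and Col4a2 on the plus strand at chr8:11312805-11449287. The gene annotations overlap by 85 bases at their outermost 5′ ends, on opposite strands. The study's methods name a stranded library and the counting of reads that overlap a gene without ambiguity. How reads from that stretch were counted was not examined. The Col4a1 window printed here starts from another 5′ end of that gene, 21 bases from the start of Col4a2. Windows from 250 bases before to 50 bases after the start site were taken from RefSeq (GRCm38.p6), which gave 1 for 7 of the 10 members. They were searched on both strands for the CCAAT box (CCAAT), the GC box (GGGCGG) and the TATA box (TATAAA), which do not overlap one another here, and matches on either strand are in capitals.
Col4a1, chr8:11312777-11313076, minus strand: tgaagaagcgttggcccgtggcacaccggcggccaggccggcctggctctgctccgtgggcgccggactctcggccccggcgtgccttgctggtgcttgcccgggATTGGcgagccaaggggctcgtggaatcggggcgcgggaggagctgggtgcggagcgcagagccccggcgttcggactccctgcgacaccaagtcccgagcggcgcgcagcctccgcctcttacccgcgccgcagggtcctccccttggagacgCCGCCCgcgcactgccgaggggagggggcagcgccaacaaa
Col4a2, chr8:11312555-11312854, plus strand: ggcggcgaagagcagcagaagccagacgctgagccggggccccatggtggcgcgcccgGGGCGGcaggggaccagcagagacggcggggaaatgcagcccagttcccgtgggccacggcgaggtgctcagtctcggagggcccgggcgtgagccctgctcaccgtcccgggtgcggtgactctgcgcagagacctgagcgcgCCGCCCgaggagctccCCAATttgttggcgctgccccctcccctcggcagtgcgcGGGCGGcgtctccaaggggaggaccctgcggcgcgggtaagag
The windows shared 78 bases (chr8:11312777-11312854). The Col4a1 window held 1 match to CCAAT and 1 to GGGCGG, the Col4a2 window held 1 and 3, and neither held TATAAA. Of all 32851 windows of this length, 37.4% held CCAAT, 35.7% GGGCGG and 13.6% TATAAA. The windows of 2 laminin genes that moved in opposite directions with HFD are given for comparison. Their start sites also lie inside the genes as annotated. They are at 27616942 for Lama2 (outermost 5′ end at 27617191) and at 31265293 for Lamb1 (31265146).
Lama2, chr10:27616893-27617192, minus strand: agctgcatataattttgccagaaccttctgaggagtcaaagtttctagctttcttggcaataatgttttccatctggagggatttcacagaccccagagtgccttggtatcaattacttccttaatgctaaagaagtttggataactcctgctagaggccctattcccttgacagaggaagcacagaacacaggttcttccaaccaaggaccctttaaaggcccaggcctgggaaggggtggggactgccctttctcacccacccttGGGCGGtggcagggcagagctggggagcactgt
Lamb1, chr12:31265043-31265342, plus strand: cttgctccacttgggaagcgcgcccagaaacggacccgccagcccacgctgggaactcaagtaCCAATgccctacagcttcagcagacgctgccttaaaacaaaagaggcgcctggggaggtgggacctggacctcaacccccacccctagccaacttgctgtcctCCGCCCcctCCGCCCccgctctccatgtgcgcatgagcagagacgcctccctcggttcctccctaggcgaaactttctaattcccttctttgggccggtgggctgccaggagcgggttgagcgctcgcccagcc
The Lama2 window had a GC content of 50.3% and held 1 GGGCGG and no CCAAT, whereas the Lamb1 window had a GC content of 63.7% with 2 GGGCGG and 1 CCAAT. The median GC content of all windows was 52.7%, and that of the Col4a1 and Col4a2 windows was 74.0% and 73.7%. Of the 7 members with a window, Hspg2 had the most matches to GGGCGG, with 5.

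In HFD adipocytes 1 of the 2 collagen IV genes, both nidogens and perlecan were higher at 8 and 20 weeks, and none of these 4 was higher at 34 weeks. Col4a2, Lama2, Nid1, Nid2 and Hspg2 were higher in HFD at both 8 and 20 weeks, Lama2 was higher at all 3 times, and Lamb1 was lower at all 3 times. At 34 weeks Nid2 was lower in HFD, the direction opposite to that at 8 and 20 weeks. Col4a1, Lama4, Lamb2 and Lamc1 did not pass the test at any time, although all but Lamb2 passed it under some other settings.

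Counted over the 10 members, 6 were called at 8 weeks (5 higher and 1 lower), 6 at 20 weeks (5 higher and 1 lower) and 3 at 34 weeks (1 higher and 2 lower), where called means an adjusted p under 0.05 from limma with Benjamini-Hochberg adjustment over all genes tested. Of all genes tested, 44.9% were called at 8 weeks, 57.0% at 20 weeks and 43.2% at 34 weeks, with 29.8%, 38.3% and 27.5% called higher and 15.1%, 18.7% and 15.7% called lower. Counts of 6, 6 and 3 of 10 are near that background. The median log2 fold change of the members was 0.61, 0.58 and -0.06, beside 0.11, 0.14 and 0.07 for all genes. Lama2 belonged to the 12.2% of genes called higher at all 3 times and Lamb1 to the 3.38% called lower at all 3.

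The deposited CPM carry no correction for RNA composition, and scaling by TMM or by median-of-ratios size factors moved the median of all genes at 20 weeks from 0.14 to -0.07 and -0.03, and at 8 weeks from 0.11 to 0.01 and -0.0017. With TMM the genes called at 20 weeks were split 2718 higher and 3356 lower in place of 3957 and 1937, at 8 weeks 2339 and 2212 in place of 3083 and 1565, and at 34 weeks 2320 and 2149 in place of 2840 and 1628. Of the members called between diets, only Nid2 at 20 weeks lost its call under these scalings, and none changed direction. Lamc1 at 8 weeks (-0.42 with TMM, adjusted p = 0.0441) and Lama4 at 34 weeks (-0.50, adjusted p = 0.0188) were called lower under both scalings, and by edgeR and DESeq2.

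**Figure D1:**
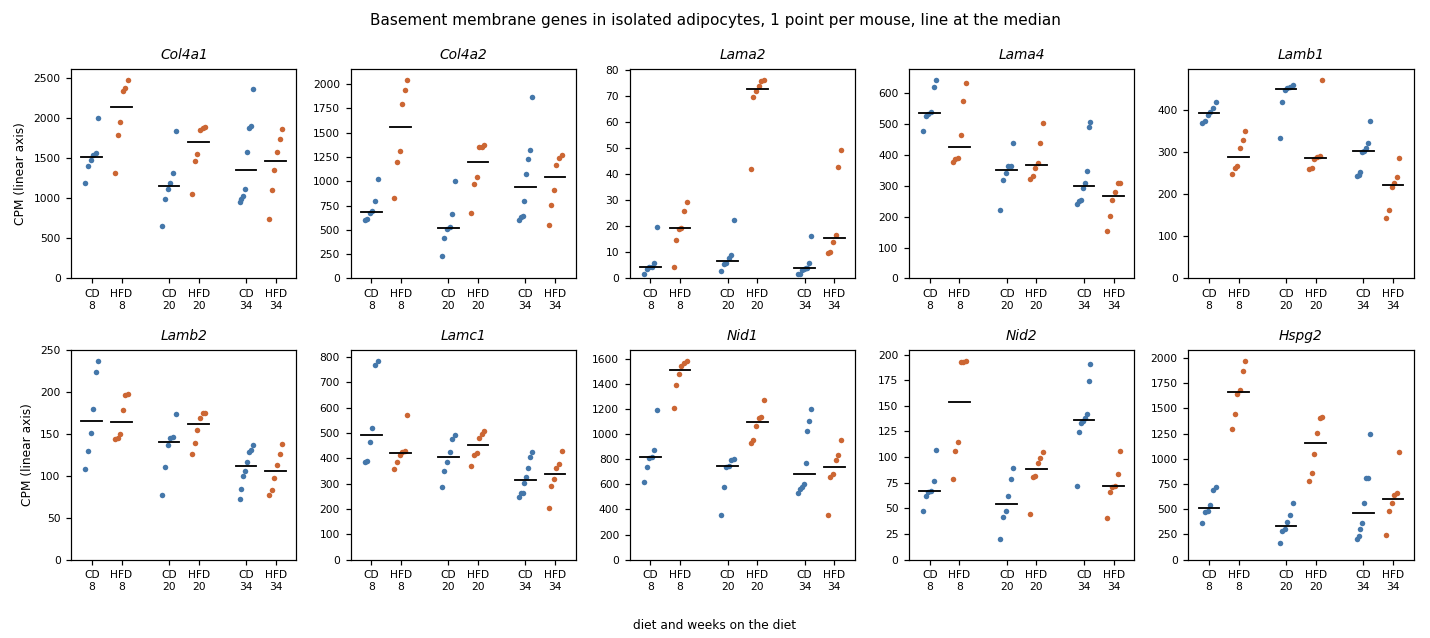
CPM of the 10 basement membrane genes (vertical axes, linear and starting at 0, 1 scale per gene) by diet and weeks on the diet (horizontal axes). Each point is a mouse, CD in blue and HFD in orange, and the black line is the group median. Hspg2 and Nid1 showed no overlap between diets at 8 and 20 weeks and overlapped at 34 weeks, and Lama2 reached 42.1 to 76.1 CPM in HFD mice at 20 weeks against at most 22.5 CPM in CD mice.

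**Figure D2:**
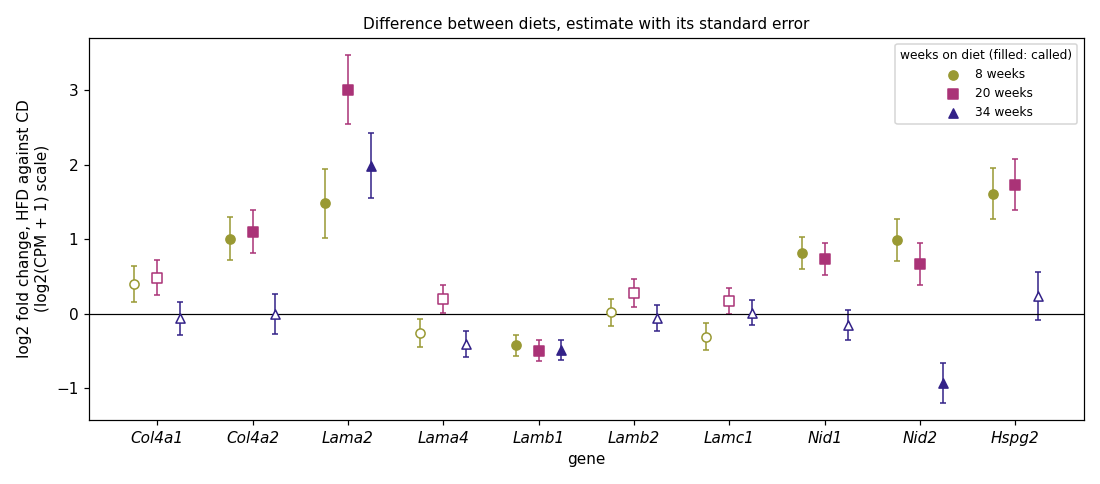
Log2 fold change of HFD against CD (vertical axis, log2(CPM + 1) scale) for each gene (horizontal axis) at 8 (circles), 20 (squares) and 34 weeks (triangles), with bars for 1 standard error on either side. Filled symbols passed the test. Nid2 changed from 0.99 at 8 weeks to -0.92 at 34 weeks, whereas Lamb1 lay between -0.42 and -0.49 at all times.

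Levels were compared between genes as CPM per kilobase of exon, over the union of a gene's exons. By the median over the 6 groups Col4a1 was highest (199.5 CPM per kilobase), followed by Col4a2 (149.5), Nid1 (112), Lamc1 (49.7), Hspg2 (38.9), Lama4 (29.8), Lamb1 (29.7), Lamb2 (24.9), Nid2 (15.4) and Lama2 (0.681). Col4a1 was above Col4a2 in 38 of 38 mice, Nid1 above Lamc1 in 37, Lamb1 above Lamb2 in 35 and Nid2 above Lama2 in 38. The other neighbours were not separated by the mice: Col4a2 was above Nid1 in 24 of 38, Lamc1 above Hspg2 in 19, Hspg2 above Lama4 in 25, Lama4 above Lamb1 in 23 and Lamb2 above Nid2 in 26. The place of Hspg2 in this order moved between groups, from 23.6 CPM per kilobase in CD mice at 20 weeks, close to Lamb2 (23.2), to 116 in HFD mice at 8 weeks, when Lamc1 was at 50.6.

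The genes of collagen IV, the major structural collagen of basement membranes, did not answer to HFD to the same degree. Col4a2, which encodes the α2 chain, was higher in HFD at 8 and 20 weeks, while Col4a1, which encodes the α1 chain that is present in 2 copies in the usual trimer, did not pass the test in the fit with equal weights for all mice. At 8 weeks Col4a2 was at 604 to 1024 CPM in CD mice (median 683) and 826 to 2038 CPM in HFD mice (median 1556). Of the HFD mice 5 of 6 lay above every CD mouse, a log2 fold change of 1.01 ± 0.29 (SE; adjusted p = 0.00566). The 20 week values were 236 to 1006 CPM in CD (median 518) and 671 to 1375 CPM in HFD (median 1197), with 4 of 6 HFD mice above all CD mice, and the fold change on the log2 scale was 1.10 ± 0.29 (adjusted p = 0.00162). By 34 weeks the ranges lay over each other, 604 to 1871 CPM in CD (median 938) and 547 to 1269 CPM in HFD (median 1042), a log2 fold change of -0.0046 ± 0.27 (adjusted p = 0.991).

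Col4a1 was at 1189 to 2002 CPM in CD (median 1513) and 1315 to 2471 CPM in HFD (median 2146) at 8 weeks. The corresponding ranges were 656 to 1840 CPM (median 1156) and 1050 to 1892 CPM (median 1707) at 20 weeks and 948 to 2363 CPM (median 1348) and 748 to 1868 CPM (median 1466) at 34 weeks. Diets overlapped at every time, and 3 of 6 HFD mice lay above every CD mouse at 8 weeks and at 20 weeks. The log2 fold changes were 0.40 (95% interval -0.083 to 0.88, adjusted p = 0.168), 0.48 (0.00024 to 0.97, adjusted p = 0.0815) and -0.06 (-0.51 to 0.39, adjusted p = 0.843). At 20 weeks the call was gained without CD mouse 1 (0.62, adjusted p = 0.0262) or HFD mouse 4 (0.60, adjusted p = 0.0345). With array weights in limma, which give less weight to mice that deviate more, Col4a1 was called higher at 8 weeks (0.61, adjusted p = 0.00092) and at 20 weeks (0.61, adjusted p = 0.000255).

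The unequal difference was also seen in the ratio of the pair, taken within a mouse and compared between separate CD and HFD mice. The ratio of Col4a1 to Col4a2 CPM was 1.86 to 2.57 in CD mice at 8 weeks (median 2.03) and 1.21 to 1.59 in HFD mice (median 1.40). At 20 weeks it was 1.83 to 2.78 in CD (median 2.23) and 1.37 to 1.57 in HFD (median 1.45). All HFD mice lay below all CD mice at both times, with differences in the mean log2 ratio of -0.61 and -0.62 (adjusted p = 0.00639 each, two-sided exact permutation test, adjusted over 12 ratio comparisons; the smallest p that 6 against 6 mice can give is 0.00216). At 34 weeks CD mice had ratios of 1.26 to 1.70 (median 1.49), below every CD mouse at 8 and 20 weeks, and HFD mice 1.34 to 1.503 (median 1.41), a difference of -0.055 (exact permutation, adjusted p = 0.431). The ratio thus stayed near 1.4 in HFD mice, and the CD mice reached that value at 34 weeks, a comparison between times that was not tested. A ratio within a mouse does not depend on how the library is scaled. It shows that the pair differed unequally between the diets and not which of them differed.

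**Figure D3:**
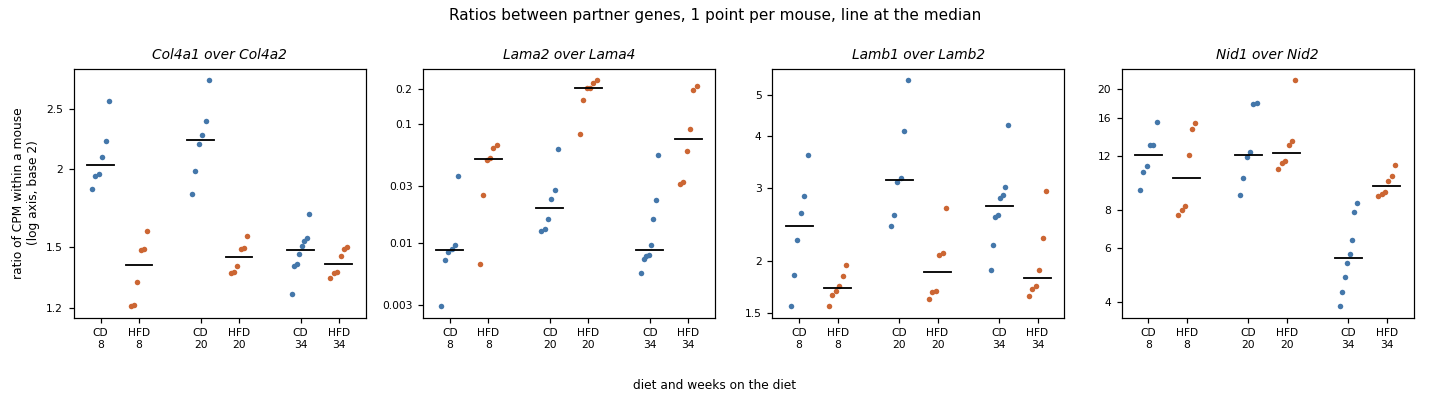
Ratio of the CPM of 2 related genes within a mouse (vertical axes, log scale of base 2) by diet and weeks on the diet (horizontal axes). Each point is a mouse, CD in blue and HFD in orange, and the black line is the group median. Col4a1 over Col4a2 was below 1.6 in every HFD mouse and had medians of 2.03, 2.23 and 1.49 in CD mice in order of time, and Nid1 over Nid2 separated the diets at 34 weeks only among the times shown.

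Among the laminin chains, Lama2 and Lamb1 differed between the diets at all 3 times and in opposite directions. Lama2 encodes the α2 chain, best known from muscle and peripheral nerve and from the muscular dystrophy that its loss causes. It was the member with the lowest level. At 8 weeks Lama2 was at 1.89 to 19.6 CPM in CD mice (median 4.43) and 4.24 to 29.4 CPM in HFD mice (median 19.4), groups that overlapped. At 20 weeks it was at 2.94 to 22.5 CPM in CD (median 6.87) and 42.1 to 76.1 CPM in HFD (median 72.9), with every HFD mouse above every CD mouse. The values at 34 weeks were 1.75 to 16.3 CPM in CD (median 3.90) and 9.80 to 49.3 CPM in HFD (median 15.4), and 3 of 6 HFD mice exceeded all CD mice.

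The log2 fold change of Lama2 was 1.48 ± 0.47 (adjusted p = 0.0103) at 8 weeks, 3.01 ± 0.47 (adjusted p = 2.48e-06; 8.03-fold) at 20 weeks and 1.99 ± 0.43 (adjusted p = 0.000638) at 34 weeks, on a scale with 1 CPM added, which understates the change of a gene at this level. Within HFD mice Lama2 rose from 8 to 20 weeks by 1.97 ± 0.47 (adjusted p = 0.00167, all 6 mice above all at 8 weeks, as for 15.0% of all genes) and fell by 1.74 ± 0.47 on the log2 scale from 20 to 34 weeks (adjusted p = 0.00570). In CD mice no difference between times passed the test. The diet effect was larger at 20 than at 8 weeks by 1.52 ± 0.66, with a 95% interval of 0.19 to 2.86 and an unadjusted p of 0.0265, but missed the threshold after adjustment over all genes (limma, adjusted p = 0.134). For 34 against 20 weeks the difference was -1.02 ± 0.64 (adjusted p = 0.299).

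Lamb1 encodes the β1 chain, which occurs in many laminins. It was at 369 to 417 CPM in CD mice at 8 weeks (median 392) and 247 to 349 CPM in HFD mice (median 287), without overlap. At 20 weeks the values were 333 to 459 CPM in CD (median 449) and 259 to 469 CPM in HFD (median 285). There 5 of 6 HFD mice lay below every CD mouse, and mouse 4 lay above them all. The 34 week values were 244 to 373 CPM in CD (median 301) and 143 to 286 CPM in HFD (median 221), again with 5 of 6 HFD mice below the CD range. The log2 fold change was -0.42 ± 0.14 (adjusted p = 0.0141), -0.49 ± 0.14 (adjusted p = 0.00315) and -0.49 ± 0.13 (adjusted p = 0.00343) in order of time, and the effect at 20 weeks differed from that at 8 weeks by -0.07 (95% interval -0.47 to 0.33).

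Lama4 encodes the α4 chain of the basement membranes of adipocytes and small vessels. It was lower at 34 than at 8 weeks in both diets, and it did not pass the test between diets. In CD mice Lama4 was at 477 to 642 CPM at 8 weeks (median 537), 223 to 440 CPM at 20 weeks (median 352) and 242 to 509 CPM at 34 weeks (median 301). In HFD mice it was at 376 to 635 CPM (median 427), 321 to 506 CPM (median 366) and 152 to 310 CPM (median 268). All CD mice at 20 weeks were below all CD mice at 8 weeks (as for 1.81% of all genes), and all HFD mice at 34 weeks were below all HFD mice at 8 weeks (7.67%) and at 20 weeks (4.42%). The diet difference was -0.26 ± 0.19 (adjusted p = 0.252), 0.19 ± 0.19 (adjusted p = 0.391) and -0.41 ± 0.18 (adjusted p = 0.0585) at the 3 times. With array weights Lama4 was called lower in HFD at 8 weeks (-0.44, adjusted p = 0.00357) and 34 weeks (-0.47, adjusted p = 0.0273).

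The ratio of Lama2 to Lama4 CPM, the α chains of this set, was higher in HFD at 20 and 34 weeks, and at 8 weeks just past the threshold. Its median was 0.00873 in CD and 0.0508 in HFD mice at 8 weeks, 0.0193 and 0.202 at 20 weeks, and 0.00876 and 0.0741 at 34 weeks. The differences in mean log2 ratio were 1.94, 3.00 and 2.68 (exact permutation, adjusted p = 0.0482, 0.00639 and 0.00639), and only at 20 weeks was there no overlap. At 8 weeks the call was lost without any 1 of 10 of the 12 mice, with an adjusted p of up to 0.0844. Lama4 remained the far more abundant of the pair per kilobase in every group, as the order of levels shows.

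Lamb2, whose β2 chain replaces β1 at synapses and in the kidney filter, and Lamc1, whose γ1 chain is common to nearly all laminins, were not called between diets. Lamb2 lay between 72.9 and 237 CPM and Lamc1 between 203 and 782 CPM over all mice. The log2 fold changes at 8, 20 and 34 weeks were 0.018 (95% interval -0.36 to 0.39), 0.28 (-0.095 to 0.66) and -0.05 (-0.40 to 0.30) for Lamb2. Lamc1 had -0.31 (-0.68 to 0.054), 0.17 (-0.19 to 0.54) and 0.01 (-0.33 to 0.35). The ratio of Lamb1 to Lamb2 had medians of 2.42 in CD and 1.72 in HFD at 8 weeks, 3.13 and 1.87 at 20 weeks and 2.71 and 1.82 at 34 weeks. The difference in mean log2 ratio was -0.44 (exact permutation, adjusted p = 0.0548), -0.78 (0.0130) and -0.44 (0.0490), and at 34 weeks it missed the threshold without any of 11 of the 14 mice.

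The nidogens, which link laminin to collagen IV, were both higher in HFD at 8 and 20 weeks and parted at 34 weeks. Nid1 was at 617 to 1192 CPM in CD (median 817) and 1209 to 1582 CPM in HFD (median 1516) at 8 weeks. At 20 weeks it was at 353 to 805 CPM (median 745) and 934 to 1276 CPM (median 1098). Every HFD mouse was above every CD mouse at both times, and the log2 fold changes were 0.82 ± 0.21 (adjusted p = 0.00274) and 0.73 ± 0.21 (adjusted p = 0.00411). The 34 week ranges, 534 to 1203 CPM in CD (median 684) and 359 to 955 CPM in HFD (median 738), overlapped, with a log2 fold change of -0.15 ± 0.20 (adjusted p = 0.559).

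Nid2 was the less abundant nidogen in every group. At 8 weeks it was at 47.8 to 107 CPM in CD (median 66.4) and 78.2 to 193 CPM in HFD (median 154), a log2 fold change of 0.99 ± 0.29 (adjusted p = 0.00588), with 4 of 6 HFD mice above all CD mice. At 20 weeks it was at 19.6 to 89.6 CPM (median 54.5) and 44.5 to 104 CPM (median 87.9), with 3 of 6 above, and the log2 fold change of 0.67 ± 0.29 was just past the threshold (adjusted p = 0.0453). That call was lost with TMM (0.45, adjusted p = 0.156), without CD mouse 3 (0.40, adjusted p = 0.203) and without any of 7 other mice.

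At 34 weeks Nid2 was at 71.4 to 191 CPM in CD mice (median 137) and 40.3 to 106 CPM in HFD mice (median 71.3). Of the HFD mice 3 of 6 were below every CD mouse, and the log2 fold change was -0.92 ± 0.27 (adjusted p = 0.00603). In CD mice Nid2 was higher at 34 than at 20 weeks by 1.38 ± 0.27 (adjusted p = 4.63e-05) and than at 8 weeks by 0.95 ± 0.27 (adjusted p = 0.00252), with 7 of 8 mice above the range of the earlier time in both comparisons. In HFD mice it was lower at 34 than at 8 weeks, by -0.96 ± 0.29 (adjusted p = 0.00526). The ratio of Nid1 to Nid2 accordingly had medians of 12.1 in CD and 9.99 in HFD at 8 weeks, 12.2 and 12.3 at 20 weeks, and 5.55 and 9.56 at 34 weeks. At 34 weeks all HFD mice (8.90 to 11.3) were above all CD mice (3.87 to 8.46), a difference of 0.78 in mean log2 ratio (exact permutation, p = 0.000666, the smallest that 6 against 8 mice can give, adjusted p = 0.00639). The differences at 8 and 20 weeks were -0.18 (exact permutation, adjusted p = 0.446) and 0.054 (0.823).

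Hspg2 encodes perlecan, the large heparan sulfate proteoglycan that binds growth factors and the other basement membrane proteins, and had the largest diet difference at 8 and 20 weeks of the members with group medians above 100 CPM. It was at 366 to 720 CPM in CD (median 514) and 1298 to 1965 CPM in HFD (median 1659) at 8 weeks, a log2 fold change of 1.61 ± 0.34 (adjusted p = 0.000429; 3.06-fold). At 20 weeks it was at 163 to 563 CPM (median 337) and 781 to 1410 CPM (median 1152), a log2 fold change of 1.73 ± 0.34 (adjusted p = 7.36e-05; 3.33-fold). The diets did not overlap at either time. At 34 weeks they did, with 201 to 1248 CPM in CD (median 464) and 242 to 1066 CPM in HFD (median 599), and the log2 fold change was 0.24 (95% interval -0.41 to 0.90, adjusted p = 0.553). Among the members, groups without overlap were found for Hspg2, Nid1 and Lamb1 at 8 weeks (22.8% of genes tested), for Hspg2, Nid1 and Lama2 at 20 weeks (37.2%) and for none at 34 weeks (2.46%).

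Whether the diet effect differed between the times was tested directly, as the difference of differences. Against 8 weeks, the diet effect at 34 weeks was lower for Nid2 (-1.91 ± 0.39, adjusted p = 0.000553), Hspg2 (-1.37 ± 0.47, adjusted p = 0.0277) and Nid1 (-0.97 ± 0.29, adjusted p = 0.0129), 3 members beside 28.8% of all genes. The same 3 were lower at 34 against 20 weeks, Nid2 by -1.59 ± 0.39 (adjusted p = 0.00905), Hspg2 by -1.49 ± 0.47 (adjusted p = 0.0373) and Nid1 by -0.88 ± 0.29 (adjusted p = 0.0474), beside 10.5% of all genes, and both comparisons use the same 34 week mice. Between 20 and 8 weeks no member was called by limma (4.49% of genes, and none by edgeR or DESeq2; 1 member, Lama2, had an unadjusted p under 0.05, at 0.0265). Col4a2 came close, with -1.01 ± 0.40 (adjusted p = 0.0519) against 8 weeks, past the threshold with TMM (adjusted p = 0.0414). Several of these calls were close to the threshold. That of Hspg2 against 8 weeks was lost without HFD mouse 4 of 34 weeks (-1.13, adjusted p = 0.0606) or CD mouse 6 of 8 weeks (-1.26, adjusted p = 0.0532). Against 20 weeks Hspg2 lost its call without any 1 of 12 mice, with adjusted p up to 0.0820 (without CD mouse 3 of 20 weeks), and with no filter on low values (0.0620). Nid1 against 20 weeks lost its call without any 1 of 23 of the 38 mice, with TMM (-0.76, adjusted p = 0.0642), with edgeR (-0.76, adjusted p = 0.0620) and with no filter (adjusted p = 0.0801). The calls of Nid2 in both comparisons and of Nid1 against 8 weeks were kept without each of the 38 mice in turn.

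Within CD mice 4 of the 5 laminin genes were lower and Nid2 was higher at 34 than at 8 weeks. These were 5 of 10 members, beside 64.7% of all genes called. All genes called were split 4151 higher and 2545 lower, or 3267 and 3294 with TMM. Lama2 was not called between any times on CD. From 8 to 20 weeks Lama4 was the member called, lower by -0.72 ± 0.19 (adjusted p = 0.0217; 3.58% of all genes called), and without any of 4 mice, of which CD mouse 3 of 20 weeks had the most effect (-0.61, adjusted p = 0.0848), it was not. From 8 to 34 weeks the 5 members called were Nid2, which was higher, and Lama4 (-0.77 ± 0.18), Lamc1 (-0.73 ± 0.17), Lamb2 (-0.62 ± 0.17) and Lamb1 (-0.43 ± 0.13), which were lower, with adjusted p from 0.000304 to 0.00499. From 20 to 34 weeks Col4a2 (0.89 ± 0.27, adjusted p = 0.0050) and Nid2 were higher and Lamb1 (-0.55 ± 0.13, adjusted p = 0.000559) lower (3 members, 62.5% of all genes). All genes called there were split 4251 higher and 2215 lower, or 3037 and 3045 with TMM. With TMM, or without CD mouse 3 of 20 weeks, Lamb2 and Lamc1 were called lower as well, making 5 members.

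Within HFD mice 7 of the 10 members were lower at 34 than at 8 weeks, and 7 of 10 were lower at 34 than at 20 weeks. From 8 to 20 weeks Lama2 rose and Nid2 fell (-0.76 ± 0.29, adjusted p = 0.0374), 2 members beside 36.5% of all genes, and the call of Nid2 was lost without any 1 of 6 mice. From 8 to 34 weeks 7 members were called, all lower, where 20.8% of all genes were called lower and 52.5% in either direction. They were Hspg2 (-1.55 ± 0.34), Nid1 (-1.09 ± 0.21), Nid2 (-0.96 ± 0.29), Lama4 (-0.91 ± 0.19), Lamb2 (-0.69 ± 0.19), Col4a1 (-0.58 ± 0.24) and Lamb1 (-0.49 ± 0.14), with adjusted p from 0.000101 to 0.0407, and for Hspg2, Nid1, Lama4 and Lamb2 all mice at 34 weeks were below all at 8 weeks (7.67% of all genes). Col4a1 lost its call without any 1 of 7 mice, with the highest adjusted p without HFD mouse 4 of 34 weeks (-0.41, adjusted p = 0.153). Col4a2 (-0.62 ± 0.29, adjusted p = 0.0710), Lamc1 (-0.41 ± 0.18, adjusted p = 0.0565) and Lama2 (0.22 ± 0.47, adjusted p = 0.706) were not called. From 20 to 34 weeks 7 members were lower (12.5% of all genes lower, 30.2% in either direction), Lama2, Hspg2 (-0.98 ± 0.34, adjusted p = 0.0298), Nid1 (-0.65 ± 0.21, adjusted p = 0.0209), Lama4 (-0.65 ± 0.19, adjusted p = 0.00982), Lamb2 (-0.58 ± 0.19, adjusted p = 0.0182), Lamb1 (-0.54 ± 0.14, adjusted p = 0.00438) and Lamc1 (-0.47 ± 0.18, adjusted p = 0.0439). Col4a1, Col4a2 and Nid2 were not called. This count depended on single mice, with 3 members without HFD mouse 4 of 34 weeks and 4 without HFD mouse 5, and the calls of Lamc1, Hspg2, Lamb2 and Nid1 were lost without any 1 of 8, 5, 2 and 1 mice. Both HFD comparisons with 34 weeks use the same 34 week mice.

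Mice within a group also differed, and Col4a1, Col4a2, Nid1, Nid2 and Hspg2 tended to vary together. As deviations from the group means over 38 mice, Col4a1 and Col4a2 had a Pearson r of 0.973 and a Spearman rho of 0.959, Col4a1 and Nid1 0.887 and 0.876, and Nid1 and Hspg2 0.879 and 0.869. The lowest r among these genes was that of Nid2 and Hspg2, 0.612 (rho 0.666). The laminin genes were mixed, with 0.683 and 0.672 for Lama4 and Lamb1 but 0.238 and 0.156 for Lama4 and Nid2. Some laminin genes varied with that set more closely than Nid2 did with Hspg2. Lamc1 and Col4a1 had 0.76 and 0.77, and Lamb2 and Nid1 had 0.718 and 0.715. Of all pairs of members, Lama2 and Lamb1 had the lowest values, -0.237 and -0.272. These are descriptions in which both genes of a pair are read from the same library of a mouse, and they carry no test. Outside the members, the genes closest to the mean of the standardised members were Fat1 (r = 0.905, rho = 0.884), Lpgat1 (0.901 and 0.865), Cdc42bpa (0.899 and 0.872), Heg1 (0.890 and 0.894) and Ptpn11 (0.890 and 0.884) across all mice, and Arhgef10 (0.949 and 0.914), Lpgat1 (0.907 and 0.891), Ptchd4 (0.907 and 0.893), Mpdz (0.897 and 0.881) and Ankib1 (0.890 and 0.831) for deviations from the group means.

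Other genes of basement membranes and of their assembly are given from lists chosen by their known roles. Their counts stand beside the 29.8%, 38.3% and 27.5% of all genes called higher and the 15.1%, 18.7% and 15.7% called lower at 8, 20 and 34 weeks. Of 26 further basement membrane genes 15 were tested, and 10 were higher and 1 lower in HFD at 8 weeks, 11 and 1 at 20 weeks, and 4 and 1 at 34 weeks, with median log2 fold changes of 1.19, 1.42 and 0.41. Col4a5, a chain of another collagen IV trimer, was higher at 20 and 34 weeks, Col15a1 at 8 weeks, and Col18a1, the source of endostatin, Lama5, Lamb3 and Sparc at 8 and 20 weeks. Fbln2, a fibulin that binds laminin and nidogen, was at 5.22 to 28.4 CPM in CD and 68.4 to 133 CPM in HFD mice at 20 weeks, higher by 3.18 ± 0.52 on the log2 scale (adjusted p = 5.78e-06), while the difference was 0.53 ± 0.49 (adjusted p = 0.389) at 34 weeks. Smoc2, a SPARC-related matrix protein, was higher at 20 weeks by 2.20 ± 0.42 (adjusted p = 5.04e-05) and at 34 weeks by 1.13 ± 0.40 (adjusted p = 0.0211).

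Among 13 genes tested for collagen folding, modification and crosslinking, 8 were higher at 8 weeks, 10 at 20 weeks and 5 at 34 weeks, and 1, Pxdn, was lower at 34 weeks. Serpinh1, the collagen chaperone HSP47, and the lysyl hydroxylases Plod1 and Plod3 were among those higher at 8 and 20 weeks, and Pxdn, the peroxidasin that crosslinks collagen IV, was higher at 8 weeks. Colgalt1, which adds galactose to collagen, was at 61.9 to 109 CPM in CD and 151 to 255 CPM in HFD mice at 20 weeks (1.46 ± 0.20, adjusted p = 4.17e-07) and Plod2, another lysyl hydroxylase, at 5.15 to 15.5 and 19.3 to 25.0 CPM (1.46 ± 0.28, adjusted p = 5.97e-05). The median log2 fold change of the list was 0.39, 0.59 and 0.12. P3h1, P3h2 and P3h3 were not analysed here.

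Of 22 receptor genes tested, among them integrins, dystroglycan and syndecans, 12 were higher and 2 lower at 8 weeks, 11 and 4 at 20 weeks, and 7 and 2 at 34 weeks (median log2 fold changes of 0.53, 0.40 and 0.25). The 7 higher at 34 weeks and the 4 lower at 20 weeks are near the shares over all genes, 27.5% and 18.7%. Itgb1, the β chain of most laminin- and collagen-binding integrins, was higher at all 3 times, and Dag1, dystroglycan, at 20 and 34 weeks. Those lower were Sdc4 and Sntb2 at 8 weeks, Sgce, Sntb1, Sntb2 and Utrn at 20 weeks, and Cd151 and Sgce at 34 weeks. Sntb2 was higher at 34 weeks. The cell surface proteoglycans Sdc1 and Sdc3 were higher at 20 weeks by 3.10 ± 0.45 (adjusted p = 8.90e-07) and 3.06 ± 0.51 (adjusted p = 8.02e-06). Of 17 genes of proteolysis 7 were higher and 1 lower at 8 weeks, 10 and 2 at 20 weeks, and 8 and 2 at 34 weeks (medians of 0.53, 1.02 and 0.67). Mmp2, a gelatinase that cleaves collagen IV, was at 0.515 to 14.1 CPM in CD and 32.1 to 80.2 CPM in HFD mice at 20 weeks (3.82 ± 0.53, adjusted p = 6.17e-07), and its inhibitor Timp2 was at 32.4 to 135 and 268 to 506 CPM (2.70 ± 0.41, adjusted p = 1.66e-06). The 2 genes called lower at 20 weeks were Mmp9, also a gelatinase, and Adamts9.

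Markers of other cell types moved with diet as well. All 16 endothelial markers were higher in HFD at 8 weeks, 11 of 16 at 20 weeks and 10 of 16 at 34 weeks, with summed levels of 148 to 704 CPM in HFD against 48.4 to 490 CPM in CD mice, 280 to 770 against 79.5 to 317 CPM, and 171 to 802 against 90.5 to 274 CPM. Of 9 mural markers tested 6, 6 and 4 were higher (sums of 190 to 600 against 129 to 266 CPM, 157 to 399 against 53.3 to 174 CPM, and 152 to 377 against 132 to 316 CPM). Of 13 markers of progenitors and fibroblasts 10, 13 and 8 were higher (408 to 1545 against 364 to 646 CPM, 891 to 2291 against 238 to 665 CPM, and 568.4 to 1326 against 413 to 2290 CPM). At 20 weeks Vwf, Pecam1, Acta2, Pdgfrb, Col1a1 and Fbn1 had log2 fold changes of 2.42, 1.28, 2.34, 2.02, 3.66 and 3.57. No marker of these lists was lower in HFD at any time, and no defining marker was at 0 in them.

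Macrophage markers were higher in 10, 12 and 14 of 14 (summed 1191 to 3568 against 388 to 1876 CPM, 5100 to 10543 against 995 to 3674 CPM, and 5935 to 17946 against 1247 to 14124 CPM), with Tyrobp at 3.77 and Cd68 at 3.29 on the log2 scale at 20 weeks. Of 12 adipocyte markers 2 were higher and 2 lower at 8 weeks, 1 and 9 at 20 weeks, and 0 and 9 at 34 weeks, and Lep was at 2.90 and Cfd at -4.03 at 20 weeks. Of the mesothelial markers 2 of 3 tested were higher at 8 weeks and none later, and the Schwann cell list had 1 gene tested, Mbp, higher at 20 weeks (0.34) and 34 weeks (0.43), with Sox10, Foxd3 and Gfra3 at 0 in all mice at 8 and 20 weeks. At 34 weeks 10 of 16 endothelial, 4 of 9 mural, 8 of 13 fibroblast and 14 of 14 macrophage markers were higher in HFD. Col1a1 (0.14, limma, adjusted p = 0.845) and Acta2 (0.11, adjusted p = 0.880), both higher at 8 and 20 weeks, were not called. Of the members, Lama2 was higher at 34 weeks, and Col4a2, Nid1 and Hspg2 were not called. The part of these other cell types in the differences of the members was not tested, and in bulk RNA more cells of a type and more RNA per cell cannot be told apart.

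Some mice that stood out for the members also stood apart in these sums, though not in the same lists each time. CD mouse 7 at 34 weeks had the highest summed level of the members in its group (8186 CPM). Its mural sum (316 CPM) was also the highest of the group. Its endothelial sum (150.5 CPM) was near the group median (150.7 CPM), and its fibroblast sum was the lowest of the group (413 CPM). CD mouse 3 at 20 weeks had the lowest summed level of the 10 members in its group (2435 CPM). Its adipocyte sum was the highest (72570 CPM), and its endothelial (79.5 CPM), mural (53.3 CPM) and fibroblast (238 CPM) sums were the lowest. HFD mouse 4 at 34 weeks had the lowest summed level of the members over its group (2533 CPM) and the highest of macrophage markers over all mice (17946 CPM). Its mural sum (233 CPM) lay within the range of the group (152 to 377 CPM). HFD mouse 4 at 20 weeks had the lowest sum of the members in its group (5113 CPM). Its sums of mural (157 CPM), fibroblast (891 CPM) and macrophage markers (5100 CPM) were the lowest as well.

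**Figure D4:**
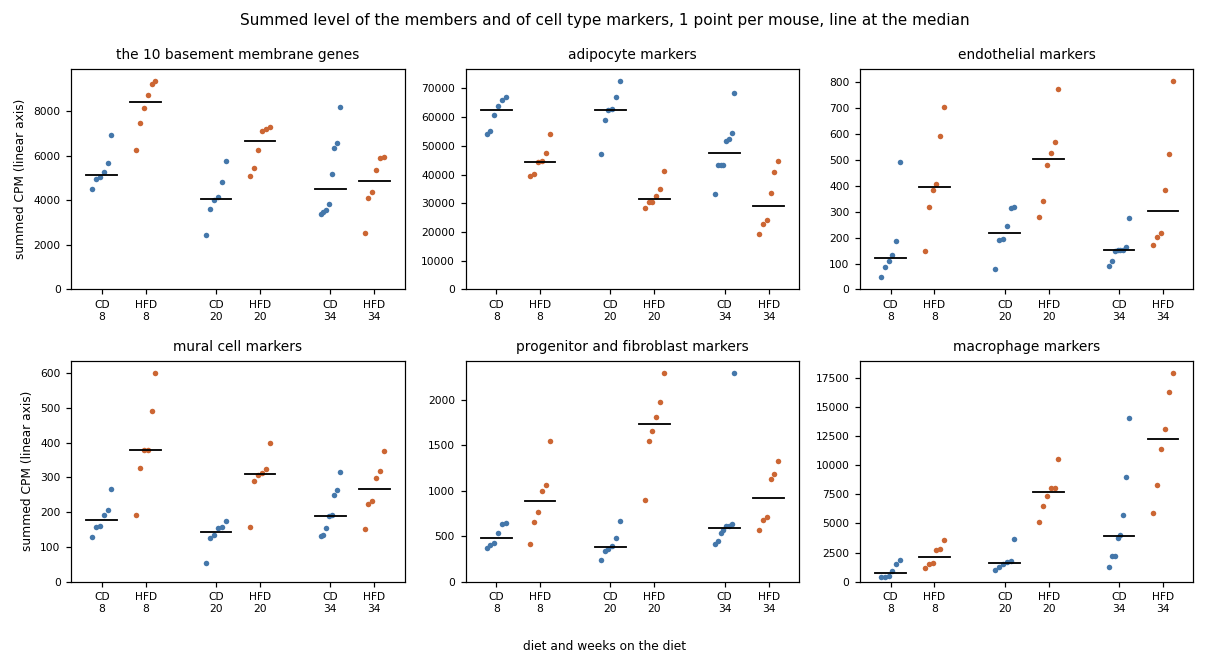
Summed CPM (vertical axes, linear and starting at 0) of the 10 basement membrane genes and of 5 marker lists by diet and weeks on the diet (horizontal axes). Each point is a mouse, CD in blue and HFD in orange, and the black line is the group median. The sum of the members was 6250 to 9364 CPM in HFD and 4526 to 6935 CPM in CD mice at 8 weeks and 2533 to 5948 against 3376 to 8186 CPM at 34 weeks, while macrophage markers reached their highest level in HFD mice at 34 weeks.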

How the data were processed

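RNA-seq of isolated perigonadal adipocytes was analysed for 38 mice in 6 groups taken from the sample titles. Per the study's methods and the submitters' processing notes, the authors aligned reads to mm10 (GRCm38) with STAR, counted reads on the union of exons of GENCODE genes with featureCounts, and deposited CPM (counts per 1000000 reads) with technical replicates merged. Each column sums to 1000000, so that no TMM factor is visible, and 100% of the values in every mouse were whole multiples of 1 read (0.0646 to 0.108 CPM) within a tolerance of 0.1 reads. These reads served the count tests, and precision from depth covers counting error only.

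Values were transformed to log2(CPM + 1). Genes with a mean above 2 entered a limma 3.58.1 fit (R 4.3.3), all 6 groups in 1 fit with a mean-variance trend (32 residual degrees of freedom), two-sided, with Benjamini-Hochberg adjustment per comparison and a threshold of 0.05. Fold changes are on this scale. Ratios within a mouse were compared by two-sided exact permutation tests in SciPy 1.17.1. edgeR 4.0.16 and DESeq2 1.42.0 on the recovered reads were alternatives. The fits were tested on simulated data.

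The members and lists were chosen with earlier results of these data known. The genes named are all members, the 2 genes of each other list called with the largest change at 20 weeks, further list genes picked after their calls were seen, and the 5 genes with the highest correlation with the members. Mice are separate animals, and none of 103 pairs of mice within a group differed by less than a chi-square of 10.6 per degree of freedom. Mouse numbers did not pair the groups. Stromal vascular fraction samples were not analysed here.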

Additional observations from a re-analysis of the deposited data

Results flagged for a closer look

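In 6 of 60 sets of a member and a group, 1 mouse lay far from the others of its group by Dixon's test, which chance gives in about 1 in 20. At 20 weeks HFD mouse 4 was the lowest for Lama2 (42.1 CPM, the next mouse at 70.0 CPM) and for Nid2 (44.5 CPM, next 80.9 CPM) and the highest for Lamb1 (469 CPM, next 291 CPM). Among CD mice at 20 weeks, mouse 6 was the lowest for Lamb1 (333 CPM, next 419 CPM). At 34 weeks HFD mouse 4 was the lowest for Nid1 (359 CPM, next 663 CPM) and CD mouse 5 the lowest for Nid2 (71.4 CPM, next 124 CPM). Without HFD mouse 4 of 20 weeks the log2 fold change of Lamb1 at 20 weeks was -0.62.

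The effect of HFD against CD differed between times for 3 members, tested as an interaction in limma with adjusted p under 0.05. At 34 against 8 weeks the difference in log2 fold change was -1.37 for Hspg2, -0.97 for Nid1 and -1.91 for Nid2. At 34 against 20 weeks it was -1.49 for Hspg2, -0.88 for Nid1 and -1.59 for Nid2. Against 20 weeks the call of Nid1 was lost with TMM, edgeR, no filter and the replicate block, and that of Hspg2 with no filter and the block. Both sets use the same 34 week mice.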

How the results depend on the processing

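Of 423 values of single members under other settings that keep all mice, 379 kept direction and side of the threshold, 12 lost a call, 13 gained one and 19 changed sign, all 19 of values that were not called. Pseudocounts of 0.5 and 4 and a fit without a trend moved no count of members by over 1.5 times. The causes of the changes were not tested.

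With at least a 2-fold change required, members called were 3, 3 and 1 between diets at 8, 20 and 34 weeks, 0 for CD 20 against 8 and 34 against 8 weeks, 1 for CD 34 against 20 weeks, and 1, 2 and 1 for HFD 20 against 8, 34 against 8 and 34 against 20 weeks. Array weights gave 2 for CD 20 against 8 weeks, 6 for CD 34 against 20 and HFD 20 against 8 weeks, and 3, 5 and 7 for the diet effect at 20 against 8, 34 against 8 and 34 against 20 weeks. For CD 34 against 20 weeks TMM, size factors, edgeR, DESeq2 and the replicate block each gave 5. Without a filter HFD 20 against 8 weeks and the diet effect at 34 against 20 weeks had 1 each, and a filter at 4.0 gave 1 for the former. The replicate block gave 1 for the diet effect at 34 against 20 weeks, where Hspg2 (-1.12, adjusted p = 0.0607) and Nid1 (-0.70, adjusted p = 0.0957) lost their calls, and with it Col4a1 at 20 weeks gained one (adjusted p = 0.0493). Mouse numbers do not pair the groups (same-number correlations of -0.51 to 0.53, with 3 of 18 highest for their own number).

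Signs changed for Lamb2 at 8 weeks (TMM -0.088, size factors -0.096, array weights -0.11, edgeR -0.13, DESeq2 -0.12), Lama4 at 20 weeks (TMM -0.025, edgeR -0.0044), Lamc1 at 20 weeks (TMM -0.046, edgeR -0.032) and 34 weeks (TMM -0.078, size factors -0.078, array weights -0.18, edgeR -0.070, DESeq2 -0.068), and Hspg2 at 34 weeks (array weights -0.33). With the replicate block they changed at 34 weeks for Col4a1 (0.14), Col4a2 (0.22), Lamb2 (0.055) and Nid1 (0.033). As a difference in medians, the ratio of Lama2 to Lama4 at 8 weeks (2.54, adjusted p = 0.0617) and of Lamb1 to Lamb2 at 34 weeks (-0.57, adjusted p = 0.0622) missed the threshold of the exact permutation test.

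With 1 mouse left out at a time, members called ranged from 0 to 1 for CD 20 against 8 weeks, 3 to 5 for CD 34 against 20 weeks, 1 to 2 and 3 to 7 for HFD 20 against 8 and 34 against 20 weeks, and 1 to 4 for the diet effect at 34 against 20 weeks. Log2 fold changes ranged from -0.10 to 0.12 for Lamb2 at 8 weeks, and at 34 weeks from -0.16 to 0.11 for Col4a1, -0.097 to 0.15 for Col4a2, -0.13 to 0.034 for Lamb2, -0.071 to 0.14 for Lamc1 and -0.25 to 0.036 for Nid1. Ratio differences ranged from 1.62 to 2.42 for Lama2 over Lama4 at 8 weeks, -0.56 to -0.32 and -0.55 to -0.35 for Lamb1 over Lamb2 at 8 and 34 weeks, and -0.084 to 0.15 for Nid1 over Nid2 at 20 weeks.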
